A study of Mus musculus with 18 samples.

Results

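The genes of regulated exocytosis, the calcium-triggered fusion of vesicles with the cell surface, were followed through mouse skin and pituitary. The samples were labelled wild type, lncKO or miR-205 KO. The set comprised 38 gene symbols chosen by function: Doc2 proteins, synaptotagmins, SNAREs, priming factors with complexins, and Rab GTPases with their effectors. Of these, 37 were matched to 1 probe set each among the 19572 probe sets of the array with a gene symbol, and Syt5 was not analysed here. Earlier results of these data were known when the set was chosen, so the shares of it past a threshold do not test enrichment. All animals were labelled C57BL/6, female and 5 to 6 weeks old, and none had a treatment. There were 6 groups of 3 arrays: wild type, lncKO and miR-205 KO in skin (arrays 1 to 9), and the same genotypes in pituitary (arrays 10 to 18). The series' title speaks of MIR205HG and miR-205 knockouts, and how either allele was made is not given in the sources used here. No probe set was named for miR-205 or its host transcript, so the genotypes rest on the labels. The values are microarray intensities, in arbitrary units on a linear scale, which can be compared between arrays for 1 gene but not between genes.

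In regulated exocytosis a vesicle is brought to the membrane by Rab GTPases and their effectors, and Unc13 and CAPS proteins (genes Cadps and Cadps2) then make it ready to fuse. Fusion itself is driven by SNARE proteins of the vesicle (Vamp genes) and of the target membrane (syntaxins and Snap25 or Snap23), which complexins hold until synaptotagmins or Doc2 proteins bind calcium. Hormone cells of the pituitary release their granules by this route, while skin uses it in nerve endings, melanocytes, mast cells and keratinocytes. The microRNA named in the label miR-205 KO pairs with its targets mainly through its seed, bases 2 to 8. The seed is shown here in capitals in the RefSeq sequence of the microRNA's main arm (GRCm38.p6, chr1:193507503-193507524, minus strand).
mmu-miR-205-5p: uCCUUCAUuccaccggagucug

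The 18 arrays had median intensities between 82 and 96. Intensities of 16 or less are read here as near the bottom of the scale. They made up 22.1% to 24.4% of named probe sets per array. Hormone genes separated the tissues: Gh reached 817571 to 966812 in the pituitary arrays and 7 to 76 in 8 of the 9 skin arrays, with 2501 in wild-type skin array 1. Y-linked genes went against the label of sex in pituitary, where the log2 intensity of all 3 such genes measured was higher than in skin. They read 172 to 2339 in the pituitary arrays and 5 to 13 in the skin arrays. By these genes sex goes with tissue, so a comparison between the tissues cannot tell tissue and sex apart. Nothing in the labels ties the 3 arrays of a group to different mice. The p-values therefore reflect variation among these samples alone, and it may be technical.

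Most of the machinery was far brighter in wild-type pituitary than in wild-type skin. Of the 37 genes, 26 were higher and 2 lower in pituitary at an adjusted p under 0.05 (limma, Benjamini-Hochberg over all 19572 probe sets). Among all probe sets 52.1% passed, 25.7% higher and 26.4% lower. The median log2 difference was 2.44 over the 37 genes and -0.01 over all probe sets, and 13 genes were at least 16-fold higher.

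Snap25, the target-membrane SNARE of neurons and endocrine cells, had intensities of 82027, 67235 and 76898 in wild-type pituitary. In wild-type skin they were 20, 15 and 13, at the bottom of the scale. The log2 difference was 12.22 ± 0.22 (SE, n = 3 arrays per group, as for all differences here; adjusted p = 5.6e-20). Snap23, the form of this SNARE found in most cells, was bright in both tissues, with 28900, 17979 and 23847 in pituitary and 17912, 21088 and 15323 in skin. Its difference of 0.37 ± 0.20 did not pass (adjusted p = 0.134).

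The calcium sensors with the greatest differences were Syt1, which triggers fast release, Syt4, whose first calcium-binding domain lacks a key residue, and Syt7, a slow sensor of high affinity. Syt1 was at 49715, 34479 and 37895 in pituitary against 32, 35 and 24 in skin, a log2 difference of 10.39 ± 0.22. Syt4 differed by 9.30 ± 0.22 and Syt7 by 7.67 ± 0.23. Syt17 followed with 5.96 ± 0.32, and in all 9 of 12 synaptotagmins were higher in pituitary and none lower. Syt2, the fast sensor of many spinal and brainstem synapses, lay at 7 to 10 in pituitary and 6 to 11 in skin, so it had no level above the bottom of the scale in either tissue.

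Among Rab proteins, Rab3b, a vesicle GTPase of pituitary cells, differed by 9.45 ± 0.29, from 18, 44 and 47 in skin to 29422, 22239 and 19542 in pituitary. All 8 genes of the Rab group passed, 7 of them higher in pituitary, including Rph3al (also called Noc2, a Rab effector of endocrine granules) by 6.00 ± 0.22. The exception was Rab3d, the family member of exocrine glands and mast cells, which was lower in pituitary (-0.99 ± 0.19, adjusted p = 0.000172). Vamp3, a vesicle SNARE of recycling membranes in most cells, was also lower in pituitary (-1.09 ± 0.22, adjusted p = 0.00021).

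Priming factors and complexins were higher in pituitary in 5 of 6 cases. Cadps, which primes dense-core granules, differed by 7.24 ± 0.31, whereas Unc13b differed by only 1.70 ± 0.25. The 6 smallest differences among genes that were higher came from Unc13b, Doc2b (1.55 ± 0.44), Stx3 (1.38 ± 0.22), Stx1a (1.34 ± 0.19), Rph3a (1.08 ± 0.21) and Syt3 (0.52 ± 0.20). Doc2b was uneven in skin, where the wild-type arrays read 32, 75 and 208. Without skin array 1 its difference was 0.90, and in a fit of only the 6 wild-type arrays its adjusted p was 0.0549. With values under 16 raised to 16, Rph3a differed by 0.35 and did not pass. Syt3 did not pass without skin array 1, skin array 2, pituitary array 10 or pituitary array 12, with log2 differences of 0.40, 0.48, 0.55 and 0.42. The 9 genes that did not pass were Doc2a, Syt2, Syt10, Syt12, Snap23, Stx4a, Vamp1, Vamp8 and Cplx1.

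**Figure D1:**
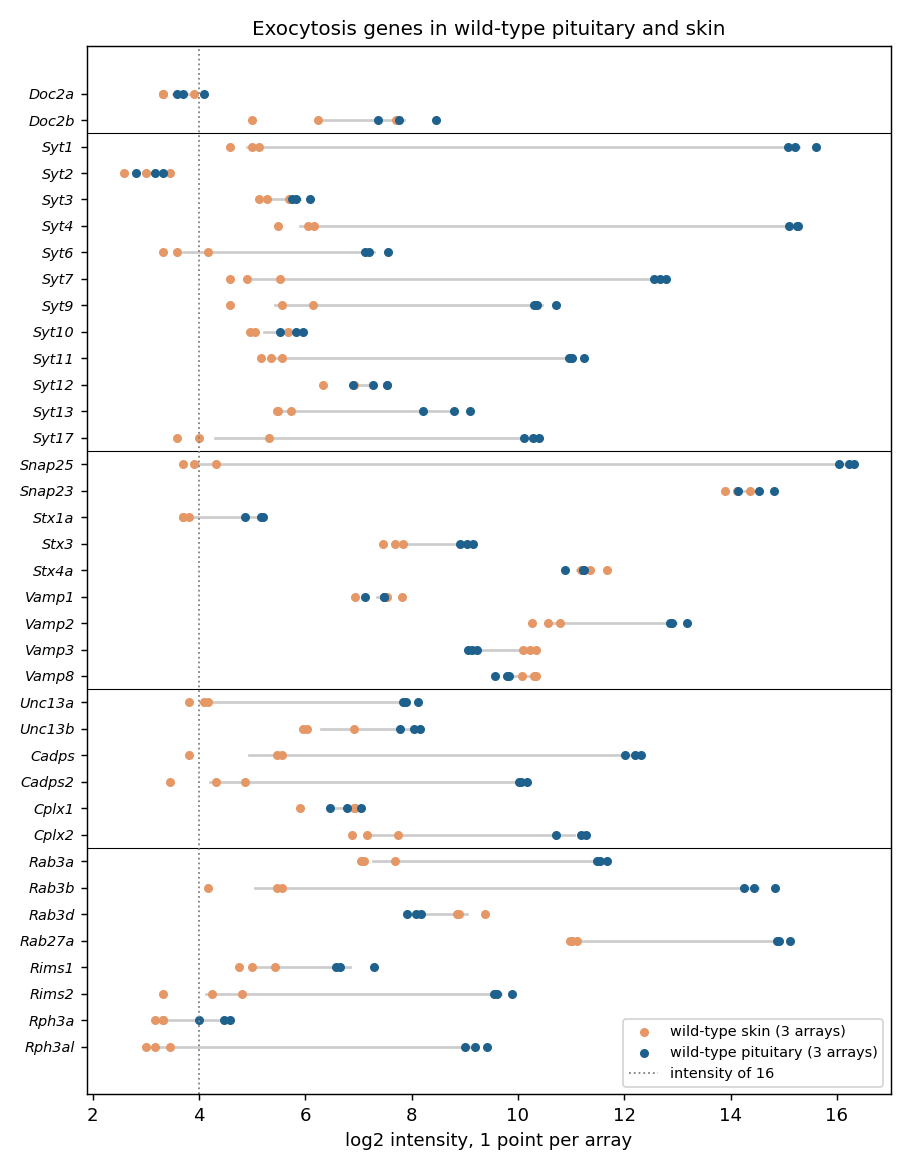
Log2 intensity (horizontal axis) of the 37 genes, grouped by role, in the 3 wild-type skin arrays (orange) and the 3 wild-type pituitary arrays (blue), with a grey line joining the means. Snap25, Syt1, Rab3b and Syt4 show the widest gaps, and Rab3d and Vamp3 lie lower in pituitary. Positions of different genes are not comparable with each other.

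In lncKO pituitary, 2 of the 37 genes changed: Doc2b rose and Syt6 fell. This is 5.41% of the set, against 0.700% of all probe sets (0.342% higher, 0.358% lower). Because the set was chosen with earlier results of these data known, these shares are descriptive only. The median log2 difference was 0.04 over the 37 genes and 0.01 over all probe sets. The other 35 genes, among them Snap25, Syt1, Syt4, Rab3b and Rab27a, differed by between -0.68 (Unc13a) and 0.91 (Syt10).

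Doc2b encodes a soluble calcium sensor with a pair of C2 domains that binds SNAREs and takes part in spontaneous and slow release in neurons and in insulin secretion. Its intensities were 352, 165 and 217 in wild-type pituitary and 2086, 1283 and 1326 in lncKO pituitary. Each lncKO array was above each wild-type array. The rise was 2.71 ± 0.30 on the log2 scale, or 6.55-fold (adjusted p = 0.00301). It ranked 2 among the 19572 probe sets by size of increase in this comparison. Leaving out any 1 array moved the log2 difference between 2.46 and 3.01, and each of these fits kept an adjusted p under the threshold. With all values under 16 raised to 16, which leaves 2830 probe sets without spread, the adjusted p of the unchanged difference was 0.0595, and 0.016 with those probe sets left out.

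Syt6 encodes a synaptotagmin known from the acrosome reaction of sperm, and belongs with Syt3 and Syt10 to a subfamily whose proteins form disulfide-linked dimers. Its intensities were 140, 146 and 187 in wild-type pituitary and 50, 63 and 51 in lncKO pituitary, again without overlap. It fell by 1.52 on the log2 scale (SE 0.20), a 2.88-fold decrease (adjusted p = 0.0084). Without wild-type array 12 the call was lost, with a log2 difference of -1.40 and an adjusted p of 0.0505. In that fit the calls over all probe sets fell from 137 to 11, so the loss was not particular to Syt6. Raising values under 16 to 16 gave Syt6 an adjusted p of 0.0586. The dimer partners did not pass in this tissue. Syt3 read 53, 56 and 51 against 57, 54 and 68, and Syt10 read 154, 62 and 112 against 46, 62 and 57 (log2 difference 0.91 ± 0.33, adjusted p = 0.288).

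The genes next in order of p were Stx3 and Rab3d, and neither passed. Stx3, a syntaxin of apical membranes and ribbon synapses, read 739, 735 and 820 in lncKO against 530, 573 and 479 in wild type (0.54 ± 0.16, adjusted p = 0.172). Rab3d read 169, 196 and 212 against 270, 241 and 288 (-0.47 ± 0.16, adjusted p = 0.253). Both sets of arrays were separate, but the differences were small beside the number of genes tested. In all, 7 of the 37 genes had an unadjusted p under 0.05, as did 12.5% of all probe sets.

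The neighbours of both changed genes on the chromosome gave no call. In the RefSeq gene order, counting genes with a probe set here, Doc2b stands beside Ywhae on one side and Rph3al, another gene of this set, on the other. Their log2 differences in lncKO pituitary were -0.04 ± 0.15 and -0.33 ± 0.21. Syt6 stands between Trim33 and Olfml3, with 0.21 ± 0.23 and -0.25 ± 0.18. All 4 adjusted p-values lay between 0.554 and 0.942.

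Markers of hormone cells were read beside these changes. By mean log2 intensity of a list, somatotrophs, lactotrophs, thyrotrophs and melanotrophs in lncKO overlapped wild type. In wild type and lncKO, somatotroph means were 17.11 to 17.31 and 17.26 to 17.52, and lactotroph means 16.09 to 16.56 and 16.23 to 16.44. Melanotroph means were 10.41 to 11.83 and 10.70 to 11.59. For thyrotrophs they were 12.35 to 12.59 and 12.39 to 12.98, with 11.95 to 12.00 in miR-205 KO, below wild type. Of 3 corticotroph markers, Tbx19 (1.69 ± 0.27, adjusted p = 0.0171) and Crhr1 (1.01 ± 0.19, adjusted p = 0.0358) rose in lncKO pituitary, while Pomc differed by 0.12 ± 0.26. The mean log2 intensity of the 3 markers was 12.65 to 13.40 in wild-type arrays, 13.87 to 14.16 in lncKO and 12.94 to 13.32 in miR-205 KO. Of 5 stem and folliculostellate markers, Sox2 rose (1.07 ± 0.18, adjusted p = 0.0204), and the list's mean was 10.10 to 10.17 in wild type, 10.72 to 10.94 in lncKO and 10.12 to 10.48 in miR-205 KO. Of 3 gonadotroph markers none passed, but their mean was 16.11 to 16.30 in wild type, 16.86 to 16.99 in lncKO and 16.30 to 17.14 in miR-205 KO. For Gnrhr, the gonadotropin-releasing hormone receptor, wild-type arrays lay at 18036, 15386 and 17225, below the lncKO arrays at 29155, 47487 and 43792 (1.22 ± 0.27, adjusted p = 0.068). The mean of both Schwann cell markers was 8.93 to 9.30 in wild type, 9.41 to 10.48 in lncKO and 9.32 to 10.03 in miR-205 KO, and neither passed in lncKO. None of the 12 neuron markers passed in lncKO pituitary, nor did any of 4 markers of hypothalamic neurons, although Avp read 168, 70 and 129 against 54, 52 and 64. The part of any cell type in the Doc2b and Syt6 values was not tested, and in whole tissue a change in the number of cells of a type and a change in RNA per cell cannot be told apart.

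**Figure D2:**
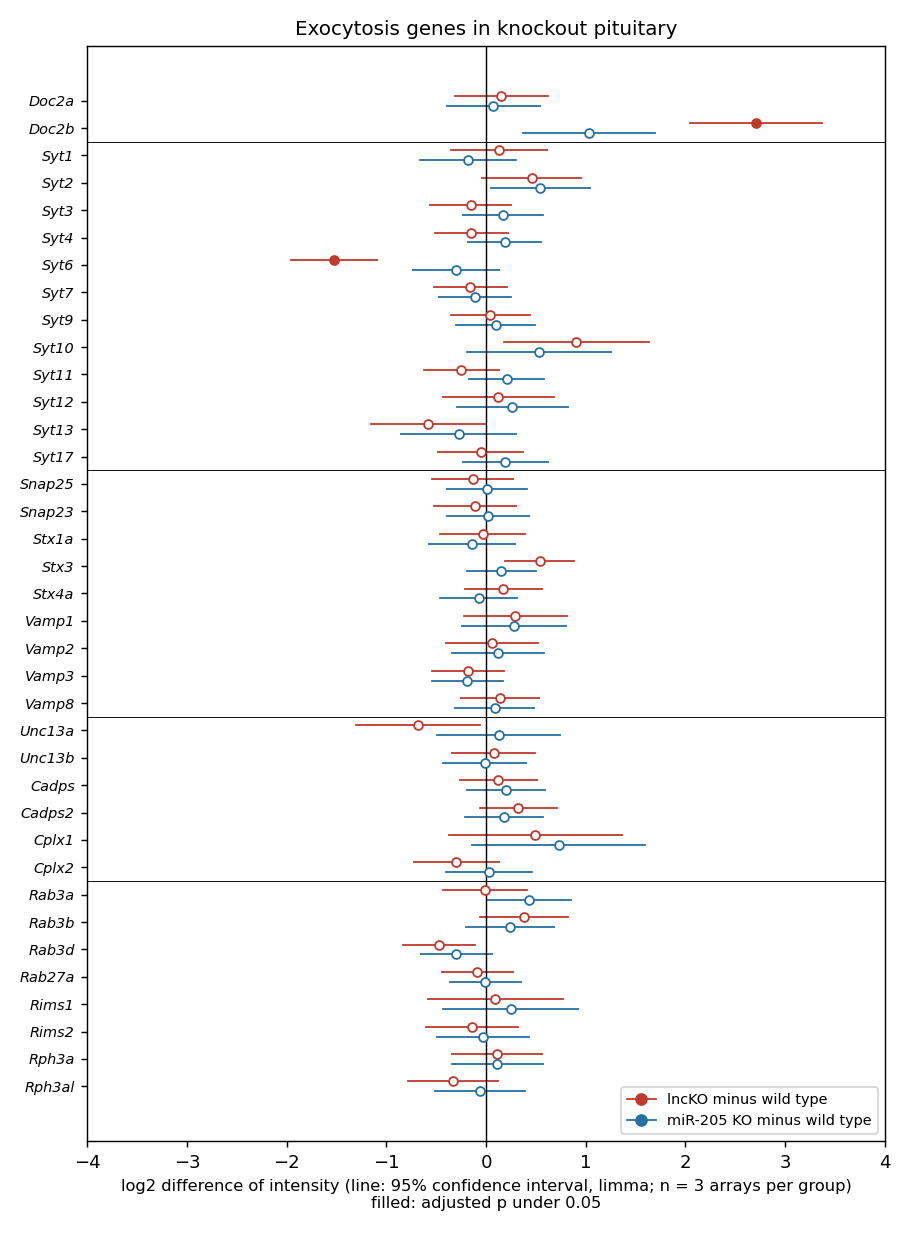
Log2 difference of intensity from wild-type pituitary (horizontal axis) for the 37 genes in lncKO (red) and miR-205 KO (blue), with 95% confidence intervals, n = 3 arrays per group. Filled points passed an adjusted p of 0.05: Doc2b at 2.71 and Syt6 at -1.52, both in lncKO. Both genotypes are set against the same wild-type arrays.

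In miR-205 KO pituitary none of the 37 genes passed, and 0.107% of all probe sets did (21 of 19572). Unadjusted, limma gave 3 of the 37 genes a p under 0.05, and 7.47% of all probe sets. The same 3 wild-type arrays serve both knockouts, so the 2 sets of differences are not independent. Doc2b read 343, 525 and 602 in miR-205 KO, from just below the highest wild-type array upward, a log2 difference of 1.03 ± 0.30 (unadjusted p = 0.00525, adjusted p = 0.435). Syt6 read 143, 141 and 101, overlapping wild type (-0.30 ± 0.20, adjusted p = 0.802).

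The other genes of lowest p in miR-205 KO pituitary were Syt2, Rab3a and Cplx1. Syt2 stayed at the bottom of the scale, at 13, 15 and 10. Rab3a, the main Rab of synaptic vesicles, read 3470, 4507 and 4427 against 2989, 2856 and 3283 (0.43 ± 0.19, adjusted p = 0.654). Cplx1, a complexin that both clamps and promotes fusion, read 136, 259 and 166 against 88, 110 and 133 (0.73 ± 0.40, adjusted p = 0.742). The 95% confidence interval of Cplx1, from -0.14 to 1.60, shows how wide a change 3 arrays per group leave undecided for a variable gene.

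The knockouts were also set against each other in pituitary, where 0.291% of all probe sets passed. Here 2 of the 37 genes passed, Syt6 lower in lncKO (-1.22 ± 0.20, adjusted p = 0.0335) and Doc2b higher by 1.68 ± 0.30 (adjusted p = 0.0483). Neither call was firm. Doc2b lost it when any 1 of the 6 arrays was left out, with adjusted p from 0.088 to 0.162 and log2 differences from 1.44 to 1.85, and Syt6 when any array but miR-205 KO array 18 was left out, from 0.07 to 0.145 (log2 differences from -1.33 to -1.13). The arrays themselves did not overlap for either gene: Doc2b was at 1283 or more in lncKO and at 602 or less in miR-205 KO, and Syt6 at 63 or less and at 101 or more. Unc13a (-0.81 ± 0.29, adjusted p = 0.315) and Syt11 (-0.45 ± 0.17, adjusted p = 0.355) came next and did not pass.

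**Figure D3:**
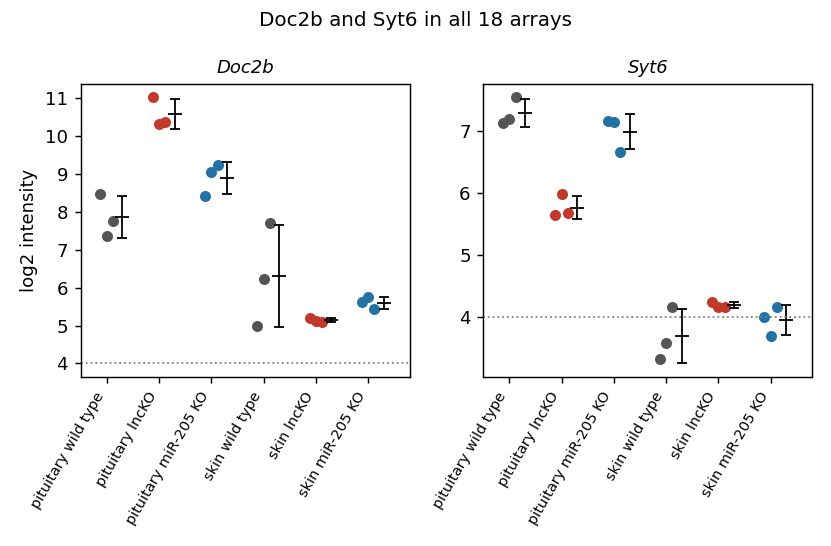
Log2 intensity (vertical axis, a separate scale for each gene) of Doc2b and Syt6 in each of the 18 arrays, 1 point per array, with the mean and SD of each group of 3 in black. The dotted line marks an intensity of 16. Doc2b in lncKO pituitary lies above all other arrays, and Syt6 in lncKO pituitary lies below the other pituitary arrays and above all skin arrays.

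In skin, more of the set changed, and in both directions. In lncKO skin 11 of the 37 genes passed, 6 higher and 5 lower (29.7% of the set). Among all probe sets 15.4% passed, 6.21% higher and 9.17% lower. In miR-205 KO skin 9 passed, 5 higher and 4 lower (24.3% of the set), against 16.8% of all probe sets, 6.79% higher and 10.0% lower. The medians over the set, -0.06 and -0.16, lay near those of all probe sets, -0.07 and -0.07. Under median centring the split of all calls turned from 1215 higher and 1794 lower to 1546 and 1403 in lncKO, and from 1328 and 1965 to 1681 and 1586 in miR-205 KO, while the set gave 7 higher and 5 lower, and 6 and 4.

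Several calls in skin rest on low intensities. All 3 arrays were at or under 16 for 5 of the 37 genes in wild-type skin, 7 in lncKO skin and 6 in miR-205 KO skin, against 1 gene in each pituitary group. Where the lower group is near the bottom of the scale, the size of a difference is uncertain.

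The complexin Cplx1 had the greatest fall of the set in both knockouts. Its intensities were 122, 60 and 120 in wild-type skin, 25, 19 and 29 in lncKO and 21, 14 and 12 in miR-205 KO. Every knockout array was below every wild-type array. The log2 differences were -2.00 ± 0.31 (4.00-fold lower, adjusted p = 0.00167) and -2.65 ± 0.31 (6.29-fold lower, adjusted p = 0.000325). Both calls passed with any 1 array left out. In the other complexin of the set, Cplx2, no difference passed (-0.50 and -0.03).

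The greatest rise was in Syt3, a calcium sensor of high affinity found at synapses and in endocrine cells. It read 35, 39 and 52 in wild type, 106, 122 and 133 in lncKO, and 134, 104 and 119 in miR-205 KO. The knockout arrays were all at least 104, above the highest wild-type array. The rises were 1.53 ± 0.22 and 1.52 ± 0.22 (adjusted p = 0.00119 and 0.00121), and they passed with any 1 array left out.

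Of the other synaptotagmins Syt10 and Syt1 fell in both knockouts. Syt10, which directs growth-factor vesicles in olfactory neurons, fell from 51, 33 and 31 to 15, 14 and 17 in lncKO and to 16, 19 and 16 in miR-205 KO. Its log2 differences were -1.29 ± 0.24 and -1.14 ± 0.24 (adjusted p = 0.00388 and 0.00684). Syt1 fell from 32, 35 and 24 to 15, 14 and 15 and to 18, 18 and 13, with log2 differences of -1.03 ± 0.23 and -0.89 ± 0.23 (adjusted p = 0.0104 and 0.0187). Syt10 and Syt1 thus ended at about 16, where their remaining level cannot be read. Syt2 passed in lncKO only (0.99 ± 0.29, adjusted p = 0.0356, against 0.78 ± 0.29, adjusted p = 0.0817), from 11, 8 and 6 to 18, 21 and 11. The direct comparison of the knockouts gave no call for it, and with values under 16 raised to 16 its difference in lncKO was 0.19 and did not pass.

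Among SNAREs, Snap23 rose in miR-205 KO skin, from 17912, 21088 and 15323 to 31376, 34119 and 39824 (0.96 ± 0.22, adjusted p = 0.0112). In lncKO skin it read 28529, 25082 and 32767, also above every wild-type array, and narrowly missed the threshold (0.67 ± 0.22, adjusted p = 0.0546). Its 6 knockout arrays thus lay above all 3 wild-type arrays. Snap25 fell in both knockouts (-0.98 ± 0.25 and -1.07 ± 0.25, adjusted p = 0.0201 and 0.013), but from 20, 15 and 13 to between 6 and 10. With values under 16 raised to 16 the Snap25 difference was -0.11 in either knockout and did not pass.

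Of the 4 vesicle SNAREs, 1 passed in lncKO skin and 0 in miR-205 KO skin. Vamp1, found at neuromuscular and other fast synapses, fell in lncKO skin from 122, 227 and 185 to 79, 65 and 102 (-1.10 ± 0.32, adjusted p = 0.0379). In miR-205 KO it read 66, 77 and 146 (-0.93 ± 0.32, adjusted p = 0.0672). Vamp2, the main vesicle SNARE of synapses and granules, did not pass in either (-0.96 and -0.92, adjusted p = 0.0661 and 0.0741), nor did Vamp3 (-0.81 and -0.76, adjusted p = 0.0508 and 0.0618). Vamp8, a SNARE of secretory granules in exocrine and mast cells, differed by -0.02 and -0.04. Vamp2 had 552, 912 and 893 in lncKO and 497, 768 and 1293 in miR-205 KO, against 1231, 1769 and 1525 in wild type. Only the miR-205 KO arrays overlapped wild type.

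Priming genes and Rab effectors that passed were higher. Unc13a, which primes synaptic vesicles, rose from 17, 14 and 18 to 30, 36 and 31 in lncKO and to 31, 30 and 25 in miR-205 KO (0.99 ± 0.21 and 0.81 ± 0.21, adjusted p = 0.00865 and 0.0197). Cadps2, a priming factor of dense-core granules, rose from 20, 11 and 29 to 44, 60 and 43 and to 44, 44 and 37 (1.38 ± 0.31 and 1.16 ± 0.31, adjusted p = 0.0111 and 0.0226). All of these readings were low, within a few multiples of 16.

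Rims1, a Rab3 effector that holds calcium channels at release sites, rose from 43, 27 and 32 to 78, 76 and 73 and to 67, 58 and 62. Its log2 differences were 1.18 ± 0.22 and 0.90 ± 0.22 (adjusted p = 0.00443 and 0.0157). Rims2, its close relative, passed in lncKO only (1.05 ± 0.33, adjusted p = 0.0494, against 0.66 ± 0.33, adjusted p = 0.194), with 29, 48 and 34 against 28, 10 and 19. Of the Rab GTPases none passed in skin. Rab27a, which carries melanosomes and granules, was bright and differed by 0.09 and -0.16.

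Single arrays decided some of these counts. In lncKO skin, Rims1, Cplx1, Cadps2, Syt3, Unc13a, Syt1 and Syt10 passed with any 1 array left out, and the count ranged from 7 (without lncKO array 5) to 12. In miR-205 KO skin only Snap23, Cplx1, Syt3 and Syt10 did, and the count ranged from 5 (without wild-type array 2) to 14 (without wild-type array 1). It was 6 without miR-205 KO array 7.

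The less firm calls of lncKO skin were Syt2, Snap25, Vamp1 and Rims2. Syt2 was lost without wild-type array 2 or 3 or lncKO array 4 or 5 (log2 differences from 0.78 to 0.99), and Snap25 without wild-type array 1 or lncKO array 5 or 6 (from -0.99 to -0.81). Vamp1 was lost without wild-type array 2 or 3 or lncKO array 4 or 5 (from -1.08 to -0.90). Rims2 was lost without any single array except wild-type array 1 (from 0.65 to 1.21). In miR-205 KO skin, Rims1 (0.75 and 0.85) was lost without wild-type array 2 or knockout array 7, and Syt1 (-0.78 and -0.73) without wild-type array 2 or knockout array 9. Cadps2 (from 0.79 to 1.12) and Unc13a (from 0.71 to 0.78) were lost without wild-type array 2 or knockout array 7 or 8, and Snap25 (-0.91) without knockout array 9. All of these kept their direction. Raising values under 16 to 16 also ended the calls of Vamp1 (adjusted p = 0.124) and Rims2 (0.107) in lncKO skin, and a fit of only the 6 arrays compared those of Syt2 (0.071) and Rims2 (0.0948).

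**Figure D4:**
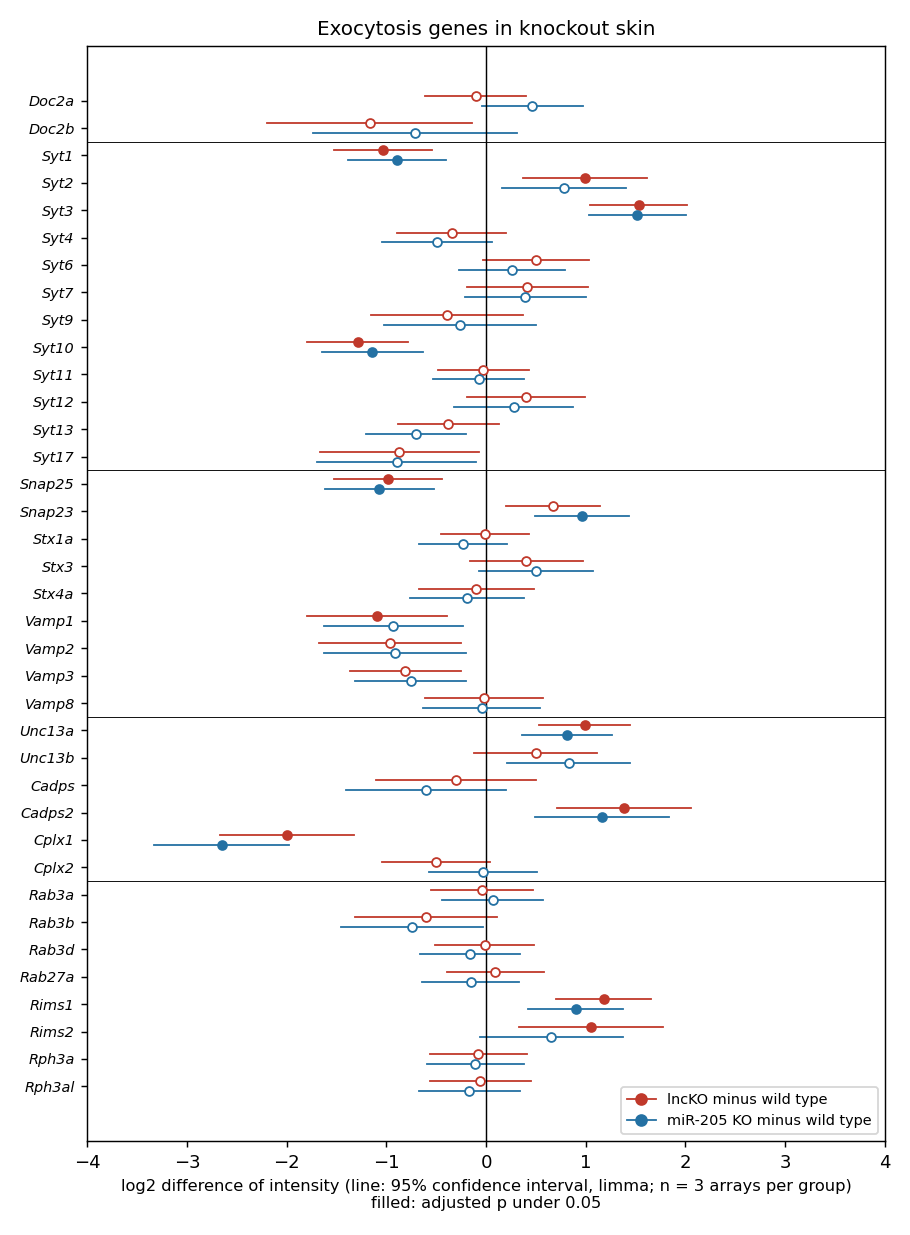
Log2 difference of intensity from wild-type skin (horizontal axis) for the 37 genes in lncKO (red) and miR-205 KO (blue), with 95% confidence intervals, n = 3 arrays per group. Filled points passed an adjusted p of 0.05, with Cplx1 the lowest at -2.00 and -2.65 and Syt3 the highest at 1.53 and 1.52. Both genotypes are set against the same wild-type arrays.

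**Figure D5:**
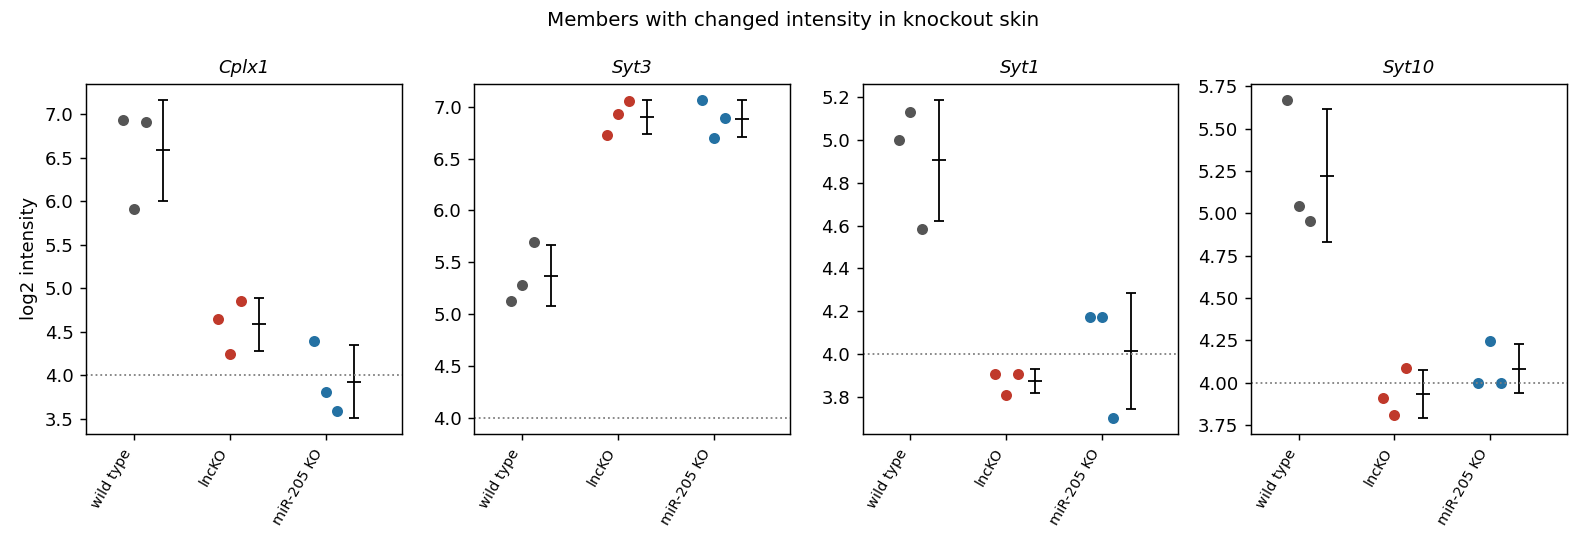
Log2 intensity (vertical axis, a separate scale for each gene) of Cplx1, Syt3, Syt1 and Syt10 in the 9 skin arrays, 1 point per array, with the mean and SD of each group of 3 in black. The dotted line marks an intensity of 16. Knockout arrays lie below wild type for Cplx1, Syt1 and Syt10 and above it for Syt3.

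Between lncKO and miR-205 KO skin none of the 37 genes passed, nor did any probe set of the array (0.00%). Unadjusted, limma gave 1 of the 37 genes a p under 0.05 (3.25% of all probe sets). This was Doc2a, which lay at 10 or 11 in lncKO and at 13 to 19 in miR-205 KO (-0.57 ± 0.24, unadjusted p = 0.0311). The next were Cplx1 (0.66 ± 0.31), Cplx2 (-0.47 ± 0.25) and Syt13 (0.33 ± 0.23). The 95% confidence interval for Cplx1, from -0.02 to 1.33, leaves a difference of that size between the genotypes undecided. For Syt3 the means in both knockouts were nearly equal, at log2 intensities of 6.90 and 6.89.

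Many nerve-cell markers fell in the same skin arrays. Of 12 neuron markers, 7 were lower in lncKO skin and 8 in miR-205 KO skin, and none was higher, with medians of -1.08 and -1.09. Among all probe sets 9.17% and 10.0% were lower. Per array, 2 to 4 of the 12 were at or under 16 in wild type, 6 to 7 in lncKO and 5 in miR-205 KO, so the size of several falls is uncertain. Gap43 did not fall in lncKO, with 229, 124 and 182 in wild type, 256, 210 and 224 in lncKO and 149, 163 and 126 in miR-205 KO. The mean log2 intensity of the list was 6.00 to 6.16 in wild-type arrays, 5.02 to 5.21 in lncKO and 5.00 to 5.20 in miR-205 KO. The summed intensity was 5119 to 9393, 2872 to 3703 and 2108 to 3309. Most of that sum came from Map2 and Stmn2 in every skin array, so it does not describe the other markers. Rbfox3, a nuclear protein of mature neurons, read 24, 22 and 22 in wild type, 10, 8 and 9 in lncKO and 8, 11 and 9 in miR-205 KO. Stmn2, of growing axons, read 5003, 2021 and 1072, then 651, 683 and 1132, then 478, 811 and 653. Under quantile normalization 5 and 7 of the 12 markers were lower.

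Markers of other cell types also differed in the knockout skin arrays, and the means are given for wild type, lncKO and miR-205 KO in that order. Of 4 adipocyte markers, Lep and Cidec rose in both knockouts, and the list's mean log2 intensity was 8.49 to 10.48 in wild type, 10.77 to 11.56 in lncKO and 10.60 to 11.58 in miR-205 KO. Of 4 cartilage markers, Acan and Cnmd rose in both, with means of 7.58 to 8.22, 8.85 to 9.31 and 8.84 to 9.22. Col2a1 read only 12 to 22 and Matn1 5 to 11 over the skin arrays, so the mean moved mainly through Acan and Cnmd. Of 4 sebocyte markers, Scd3 rose in both, with means of 11.76 to 12.05, 12.65 to 13.34 and 12.37 to 12.86. Scd3 read 1367, 5836 and 1220, then 74498, 44442 and 19617, then 61748, 8746 and 50928. Awat1 did not rise, with 6834, 5297 and 17975, then 4834, 5219 and 5827, then 1760, 5138 and 4913. Readings of Awat2 and Elovl3 in either knockout overlapped wild type. Of 5 hair shaft markers 2 fell in each knockout, with means of 4.42 to 6.81, 4.00 to 4.18 and 3.91 to 4.16. Of 4 hypothalamic neuron markers 2 fell in lncKO and 1 in miR-205 KO, with means of 5.21 to 5.33, 4.22 to 4.36 and 4.31 to 4.34. Of 4 suprabasal keratinocyte markers, Flg2 and Krt10 rose in both, with means of 14.94 to 15.40, 15.50 to 15.71 and 15.63 to 15.90. Melanocyte means were 7.399 to 8.207, 8.216 to 8.437 and 8.211 to 8.732, so knockout arrays lay above wild type. In lncKO skin, means lay below wild type for Schwann cells (10.64 to 10.97 against 11.04 to 11.87). They lay above it for fibroblasts (16.31 to 16.68 against 15.74 to 16.21) and endothelium (9.70 to 9.86 against 9.13 to 9.66). In miR-205 KO skin these last lists overlapped wild type, and mast cell means overlapped it in both knockouts. The part of these cell types, and of nerve fibres, in the changes of the exocytosis genes in skin was not tested.

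Whether a knockout acted differently in the tissues was tested as an interaction over all 18 arrays. Since the Y-linked genes separate the same arrays, this test cannot tell tissue and sex apart. For lncKO 8 of the 37 genes passed (21.6%, against 9.25% of all probe sets), and for miR-205 KO 5 (13.5%, against 9.95%). Doc2b differed most for lncKO, by 3.88 ± 0.62 (adjusted p = 0.000768), since it rose in pituitary while skin read 37, 35 and 34 against 32, 75 and 208 (-1.17 in skin, adjusted p = 0.114). Cplx1 differed by 2.49 ± 0.54 for lncKO and by 3.38 ± 0.54 for miR-205 KO, with the fall in skin and no call in pituitary. Syt3 differed by -1.69 ± 0.28 and -1.35 ± 0.28, with the rise in skin only among the calls. The same wild-type arrays enter both interactions.

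Other genes of the release pathway were read from 8 lists with 140 probe sets, none of them in the set above. In wild type, 74 were higher and 27 lower in pituitary, with a median of 0.75, against 25.7% higher, 26.4% lower and a median of -0.01 over all probe sets. The granule cargo list had 9 of 10 genes higher and a median of 9.40. Scg2, a granin precursor, differed by 15.21 ± 0.28 and Chgb by 13.94 ± 0.32. Syp, a vesicle membrane protein, differed by 10.52 ± 0.21, and Pclo, an active zone scaffold, by 9.11 ± 0.28. Stx19 (-4.12 ± 0.29), an epithelial syntaxin, and Esyt3 (-3.32 ± 0.27), a tether to the endoplasmic reticulum, were lower in pituitary.

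In lncKO pituitary 2 of the 140 passed (1.43%, against 0.700% of all probe sets). Vgf, a secreted neuroendocrine precursor, rose from 43, 47 and 58 to 112, 110 and 127 (1.25 ± 0.21, adjusted p = 0.0191). Cacna2d4, an auxiliary calcium channel subunit, fell from 102, 68 and 82 to 30, 43 and 25 (-1.38 ± 0.25, adjusted p = 0.0325). In miR-205 KO pituitary none of the 140 passed in limma. There Vgf read 74, 73 and 113 (0.79 ± 0.21, adjusted p = 0.361) and Cacna2d4 34, 44 and 26 (-1.29 ± 0.25, adjusted p = 0.151).

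In skin 26 of the 140 passed in lncKO, 6 higher and 20 lower, and 31 in miR-205 KO, 9 higher and 22 lower, or 18.6% and 22.1% of the lists. Over all probe sets 15.4% and 16.8% passed. Under median centring the counts were 8 higher and 17 lower, and 10 and 16. The vesicle membrane list held 6 and 7 of the falls. In it Sv2b, a vesicle glycoprotein, went from 41, 30 and 40 to 10, 12 and 12 in lncKO and to 9, 9 and 11 in miR-205 KO, and Scamp5 from 284, 321 and 238 to 90, 78 and 80 and to 75, 91 and 90. Slc17a7, the vesicular glutamate carrier, fell by 2.03 and by 1.88 on the log2 scale. It went from 32, 32 and 32 to 9, 6 and 9 and to 11, 10 and 6, at the bottom of the scale like Sv2b. Sypl2, a synaptophysin relative of muscle, rose by 1.47 and 1.64.

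Among calcium channel genes Cacna2d2 fell from 58, 82 and 54 to 17, 12 and 15 and to 12, 15 and 16 (-2.13 ± 0.24 and -2.16 ± 0.24), and Cacna1h fell too (-1.43 and -1.38). Cacna1a fell (-1.43 ± 0.41) and Cacnb2 rose (0.71 ± 0.20) in lncKO, and Cacna1b fell (-0.99 ± 0.30) in miR-205 KO. At the active zone Rimbp2, which links Rims to calcium channels, fell (-1.80 and -1.82), as did Unc13c (-1.54 and -1.61) and Rab3gap2 (-1.20 and -1.03). The direction of Unc13c was thus opposite to that of Unc13a, but both lay near the bottom of the scale. Unc13c read 22, 27 and 18 in wild type, 9, 8 and 6 in lncKO and 6, 9 and 7 in miR-205 KO. Unc13a started from 17, 14 and 18. Ppfia3 fell in lncKO (-0.96 ± 0.26), and Myrip rose in miR-205 KO (1.05 ± 0.32), from 9, 18 and 10 to 21, 20 and 34.

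Granule genes split. Pcsk1, a prohormone convertase, fell (-1.33 and -1.28), as did Chga (-0.88 and -0.92), both to the bottom of the scale, while Scg3 rose by 1.53 and 1.84 and Pam by 0.90 in miR-205 KO. Of the other SNAREs, Vamp5 rose by 1.27 and 1.32 and Stx16 by 0.78 and 0.75, Stx12 fell (adjusted p = 0.0107 and 0.0125), and Vti1b rose by 0.81 in miR-205 KO. Stxbp5l rose by 0.97 and 1.01, Napa (-0.73) fell in lncKO and Stxbp5 (-0.86) in miR-205 KO. Napa read 10850, 9756 and 8977 in wild type, 4931, 6347 and 6704 in lncKO and 5660, 7181 and 6662 in miR-205 KO. No probe set passed between the skin knockouts, so a gene named for a single knockout is not shown to differ between them. Sytl1, a Rab27 effector, fell in both (-1.11 and -1.64), Sytl4 (-0.67) in lncKO and Syt16 (-0.77) in miR-205 KO, where Sytl2 rose by 0.81. Of the 12 exocyst genes none passed in lncKO, and Exoc1 (-1.50 ± 0.32) and Exoc3l (-0.77 ± 0.23) fell in miR-205 KO. Sytl4, Syt16 and Exoc3l fell to under 16, and Scg3 started from 17, 17 and 15, so the size of these differences is uncertain.

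RefSeq promoter sequences were matched for 26 of the 37 genes. The 250 bases before each listed start were searched on both strands for 5 motifs, none of which contains another. A gene was counted where any of its starts had a match, and its highest GC content over starts was taken. Genes with more starts thus had more chances of a match, and the number of starts was not evened out. A GC box (GGGCGG) stood before 20 of the 26 (76.9%), against 47.7% of 15691 genes of the array with a promoter sequence, and the median GC content was 62.0% against 57.2%. An E-box (CACGTG) stood before 4 (15.4%, against 7.92%) and a TATA box (TATAAA) before 2, Rab3b and Stx3 (7.69%, against 13.5%). The cyclic AMP response element (TGACGTCA, 2.27% of genes) and the left part of the RE1 element (TTCAGCACC, 0.40% of genes) had no match in the 26. These are matches of letters in a short window, and such a window says nothing on binding.

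The stretches before Syt6, which fell in lncKO pituitary, and before Cplx1 and Syt3, which moved in opposite directions in knockout skin, are shown 5′ to 3′ on the gene's strand with motif matches in capitals (RefSeq, GRCm38.p6). That of Syt6 (chr3:103574995-103575244, plus strand, the first of 3 starts listed) has 2 GC boxes and 1 E-box. That of Cplx1 (chr5:108550028-108550277, minus strand) has 1 GC box, read on the opposite strand, and that of Syt3 (chr7:44383876-44384125, plus strand) has no match. Their GC contents were 60.4%, 64.8% and 62.4%, close to one another.
Syt6: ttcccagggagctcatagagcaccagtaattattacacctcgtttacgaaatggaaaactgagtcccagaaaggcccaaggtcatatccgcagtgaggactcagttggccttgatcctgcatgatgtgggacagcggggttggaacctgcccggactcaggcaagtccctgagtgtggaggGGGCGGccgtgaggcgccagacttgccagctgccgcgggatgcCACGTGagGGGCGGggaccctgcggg
Cplx1: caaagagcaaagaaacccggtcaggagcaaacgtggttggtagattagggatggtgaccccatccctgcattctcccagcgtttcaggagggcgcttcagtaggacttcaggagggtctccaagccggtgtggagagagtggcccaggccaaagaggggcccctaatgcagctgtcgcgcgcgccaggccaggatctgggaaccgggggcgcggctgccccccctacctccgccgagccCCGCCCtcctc
Syt3: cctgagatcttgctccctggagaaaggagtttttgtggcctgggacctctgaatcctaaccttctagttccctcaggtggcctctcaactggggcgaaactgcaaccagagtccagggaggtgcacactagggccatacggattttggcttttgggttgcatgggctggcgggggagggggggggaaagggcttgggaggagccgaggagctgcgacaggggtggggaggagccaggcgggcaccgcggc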

How the data were processed

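RNA of skin and pituitary was hybridised to Affymetrix Clariom S arrays after amplification and labelling as single-stranded cDNA, per the labels' protocols, which describe extraction from a piece of ear beside the pituitary samples too. The deposited table gives an intensity in whole, linear units (4 to 1243875) for each probe set. How the authors corrected background and normalized these is not given in the sources used here. Of 22206 probe sets, 19572 carried 1 gene symbol, 0 several and 2634 none. No pair of arrays shared more than 5.49% identical values.

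Intensities were log2 transformed with no pseudocount and tested with limma 3.58.1 in R 4.3.3 (lmFit, contrasts, eBayes, two-sided), with Benjamini-Hochberg adjustment over 19572 probe sets and a threshold of 0.05. The 9 arrays of a tissue shared a fit (6 residual degrees of freedom). The tissue comparison and the interactions used all 18 (12 residual degrees of freedom). Errors are standard errors unless named SD. Precision is limited by the number of arrays. The script was tested on simulated data.

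The genes of the set, the pathway lists and the markers were chosen with earlier results of these data known. Named were the genes of the set past the threshold, up to 4 of smallest p where fewer passed, the 8 highest and 8 lowest in the tissue comparison, and up to 4 per pathway list in each comparison of a knockout with wild type. For the tissues, pathway genes at the ends of some lists were named. Alternatives were quantile normalization, median centring, a floor at 16, a filter on low values (mean log2 of at least 4 in 1 group), a variance trend with robust moderation, other sets of arrays in the fit, and leaving out each array. A floor without constant probe sets was added after seeing the data. No sample number recurs between groups, so no samples were paired.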

Additional observations from a re-analysis of the deposited data

Results flagged for a closer look

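The effect of a knockout differed between the tissues, by the interaction test over all 18 arrays (limma, adjusted p under 0.05), for the genes that follow. All values are the log2 effect in pituitary minus that in skin. For lncKO, Doc2b (3.88), Cplx1 (2.49), Syt10 (2.20), Vamp1 (1.39) and Syt1 (1.16) had the higher effect in pituitary. Syt6 (-2.03), Syt3 (-1.69) and Unc13a (-1.67) had the lower effect there. For miR-205 KO, Cplx1 (3.38), Syt10 (1.67) and Snap25 (1.08) had the higher effect in pituitary, and Syt3 (-1.35) and Snap23 (-0.94) the lower. Doc2b and Syt6 carry a call in pituitary, while the other genes carry theirs in skin. The difference of Vamp1 had an adjusted p of 0.0454 and was lost when any 1 array but skin wild-type array 1, lncKO skin array 6 or lncKO pituitary array 15 was left out (1.18 to 1.45). That of Syt1 was lost without skin wild-type array 2, pituitary wild-type array 11 or 12 or lncKO pituitary array 13 (0.93 to 1.12). For miR-205 KO, Snap23 was lost without any single array except skin wild-type array 2, miR-205 KO skin array 7 or pituitary wild-type array 11 (-0.96 to -0.78), and Snap25 without any except skin wild-type array 2 or 3, miR-205 KO skin array 7 or pituitary wild-type array 10 (0.91 to 1.12). With values under 16 raised to 16 the difference of Snap25 was 0.11.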

How the results depend on the processing

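Counts of the 37 genes past the threshold kept within 1.5 times of the reported count under the alternatives run, with the exceptions given here. With a floor at 16 the count was 0 instead of 2 for lncKO against wild type in pituitary and 0 instead of 2 for lncKO against miR-205 KO there. The floor made 2830 probe sets constant, and the prior degrees of freedom of the pituitary fit fell to 0.498. With those probe sets left out, chosen after seeing the data, the counts were 2 and 1. For lncKO against miR-205 KO in pituitary the count was also 0 with only the groups compared and 1 with all 18 arrays. For miR-205 KO skin all 18 arrays in a fit gave 15 instead of 9. Apart from the floor's construction the cause was not tested. With each array left out in turn, the counts ranged from 1 to 2 (pituitary lncKO), 0 to 1 (lncKO against miR-205 KO in pituitary), 7 to 12 (skin lncKO), 5 to 14 (skin miR-205 KO), 6 to 10 (lncKO interaction) and 3 to 7 (miR-205 KO interaction). The 3 came without miR-205 KO skin array 8, pituitary wild-type array 12, or miR-205 KO pituitary array 16, 17 or 18. Of 776 single values of called genes under an alternative, 670 kept their call, 106 lost it and 0 changed direction. No probe set at the bottom of the scale gives a reliable size of change.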
